A study of Mus musculus with 2 samples.

Results

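The 33 genes described here build, or are expressed in, the first red blood cells of the mouse embryo, and they were chosen by name: 12 transcriptional regulators, 4 globins, 7 enzymes of heme synthesis, 7 membrane and surface genes, and 3 genes of iron import, heme breakdown and globin chaperoning. Of the 33, 31 had a probe on the array, and all 31 were detected, among 26667 detected genes in all. The globin Hbb-bh1 and the alpha-globin chaperone Ahsp had no matching probe name and were not analysed here. The values compare RNA of Cdx2+/-Cdx4-/- mouse embryos, which lack Cdx4 and keep 1 copy of Cdx2, with RNA of wildtype embryos, both at 13 somites. The tissue was the part of the embryo behind a common landmark, the last somite boundary. Each genotype was 1 pool of 7 embryos, and the 2 RNA pools were compared on 2 dual-colour Agilent arrays with the dyes exchanged: the mutant pool carried Cy5 on replicate 1 and Cy3 on replicate 2. The wildtype strain, the age in days and the sex of the embryos were not given in the sources used here.

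The labels describe a pool per genotype and a dye swap, and do not say whether both arrays used the same RNA extracts. The arrays were taken as technical repeats of a single comparison, with 1 biological sample per genotype. Under that reading every error below is the technical SD between the 2 arrays, and no p-value between genotypes can be had. A gene was called lower or higher when the mutant differed from the wildtype by at least 1.5-fold, a log2 ratio of 0.58 in size, in the same direction on each array. Of the 41174 gene spots, between 77.4% and 82.5% were well above background in each channel. Cdx4 itself was 5.75-fold lower in the mutant pool (log2 -2.52 ± 0.12), whereas Cdx2 was at -0.05 ± 0.09, and whether either probe lies in the deleted sequence was not given. The pools also differed in Xist, the RNA made from the inactive X chromosome of females: it was not well above background in the mutant pool and at least 3.95-fold lower there than in the wildtype pool. The part of this difference in the values of X-linked members such as Gata1 and Alas2 was not tested.

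Primitive red blood cells arise in the yolk sac from mesoderm that also yields endothelium, and enter the embryo once the heart beats. Tal1 or its relative Lyl1, together with Lmo2, Ldb1 and a GATA factor, forms a complex on DNA that drives the blood programme, and Gata1 with its cofactor Zfpm1 and the factor Klf1 then activates the globin, heme and membrane genes. Heme is built in a chain of enzymatic steps that starts in the mitochondrion with Alas2, passes through the cytosol and ends in the mitochondrion with Fech. Cdx genes, which encode homeodomain factors of the posterior embryo, are known to be required for embryonic blood formation in zebrafish and in mouse embryonic stem cells.

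The sequences before the start sites of 4 members are shown because these genes carry the results below: Lyl1 and Itga2b were the members called lower, Klf1 is an erythroid activator that was not called, and Hba-x is an embryonic globin that was not called. Each is the 250 bases upstream of the start, read 5′ to 3′ on the gene's strand from RefSeq on GRCm38.p6. Capitals mark matches, on either strand, to GATA words (AGATAA, the form with a final G, AGATAG, the form with a first T, TGATAA, and the form with both changes, TGATAG), to a CACCC-type word bound by KLF factors (CCNCNCCC) and to an E-box word bound by TAL1 and LYL1 dimers (CAGNTG), and matches may overlap. Lyl1 lies at chr8:84701207-84701456 on the plus strand, Itga2b at chr11:102469884-102470133 on the minus strand, Klf1 at chr8:84901732-84901981 on the plus strand and Hba-x at chr11:32276350-32276599 on the plus strand.
Lyl1: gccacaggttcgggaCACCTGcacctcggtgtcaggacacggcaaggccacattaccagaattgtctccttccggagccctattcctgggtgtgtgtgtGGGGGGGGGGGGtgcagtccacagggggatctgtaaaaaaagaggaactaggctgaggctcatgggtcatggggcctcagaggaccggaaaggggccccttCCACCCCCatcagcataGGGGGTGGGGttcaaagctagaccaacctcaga
Itga2b: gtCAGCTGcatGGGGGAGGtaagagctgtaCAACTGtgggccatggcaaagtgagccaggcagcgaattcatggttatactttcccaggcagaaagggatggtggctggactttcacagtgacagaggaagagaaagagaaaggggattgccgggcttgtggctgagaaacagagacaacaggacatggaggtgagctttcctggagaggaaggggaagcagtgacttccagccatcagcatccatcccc
Klf1: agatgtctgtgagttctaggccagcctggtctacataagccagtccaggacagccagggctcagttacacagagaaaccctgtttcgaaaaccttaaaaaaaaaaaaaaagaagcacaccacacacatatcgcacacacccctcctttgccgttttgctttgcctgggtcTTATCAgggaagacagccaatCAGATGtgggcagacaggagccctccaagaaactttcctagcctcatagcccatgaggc
Hba-x: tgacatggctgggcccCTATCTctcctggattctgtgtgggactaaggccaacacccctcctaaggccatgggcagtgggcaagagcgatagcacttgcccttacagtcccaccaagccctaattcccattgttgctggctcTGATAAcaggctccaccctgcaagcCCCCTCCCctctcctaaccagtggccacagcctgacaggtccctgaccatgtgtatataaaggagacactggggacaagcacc

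Lyl1 has 8 CACCC-type matches, 5 of them overlapping in a run of G that begins 151 bases before the start, and an E-box 235 bases before it. Itga2b has a CACCC-type match 239 bases and E-boxes 248 and 220 bases before its start. Neither gene has one of the GATA words in this window. Klf1 has a GATA word 80 bases and an E-box 59 bases before its start, and Hba-x has GATA words at 234 and 108 bases and a CACCC-type match at 83 bases. Among the 25 members with an upstream sequence in the table, 14 (56%) hold a GATA word, against 29.7% of the 27025 genes in the table. They include all 3 globins with a sequence, 4 of 6 membrane genes, 3 of 6 heme enzymes and 3 of 9 regulators. The CACCC-type word is in 16 of the 25 (64%, against 48.5% of all genes) and in 8 of the 9 regulators. The E-box word is in 9 (36%, against 48.2%). The word TTTATG, a CDX binding motif, is in 1 member, Hbb-y (4%, against 12.4%). These matches describe the letters of the windows and do not show binding.

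Across the whole set, 2 of the 31 detected members fell in the mutant pool, the transcription factor gene Lyl1 and the integrin gene Itga2b, and none rose. Over all detected genes, 60 of 26667 (0.225%) were called lower and 55 (0.206%) were called higher. The other 29 members did not pass the rule on both arrays. Members more often lay below 0 on both arrays than genes at large: 16 of 31 (51.6%) did so, against 6396 of 26667 (24%) overall. Only 2 members (6.45%), Runx1 and Tfrc, were above 0 on both arrays, against 23% of all genes. Opposite signs on the arrays were found for 13 members (41.9%, against 53% of all genes). With probes summarised by their median, Runx1 had opposite signs, and 1 member was above 0 on both arrays (3.23%, against 22.8% of all genes). The median log2 ratio of the members was -0.10 (-0.18 on replicate 1 and -0.16 on replicate 2), and that of all detected genes was 0.00. The median size of the log2 ratio, whatever its sign, was 0.10 for members and 0.06 for all genes, and 64.5% of members had a mean within 0.2 of 0, against 90.8% of all genes. The pooled SD between arrays was 0.20 for members and 0.19 for all genes. The mean was larger in size than its own SD for 15 of the 31 members, and for 9904 of the 26667 detected genes. The excess below 0 also depended on the normalization. With each array centred on its median in place of a loess fit, 4 members were below 0 on both arrays (12.9%, against 8.36% of all genes) and none was above. In tissue of this kind, fewer blood cells and less RNA per blood cell cannot be told apart.

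**Figure D1:**
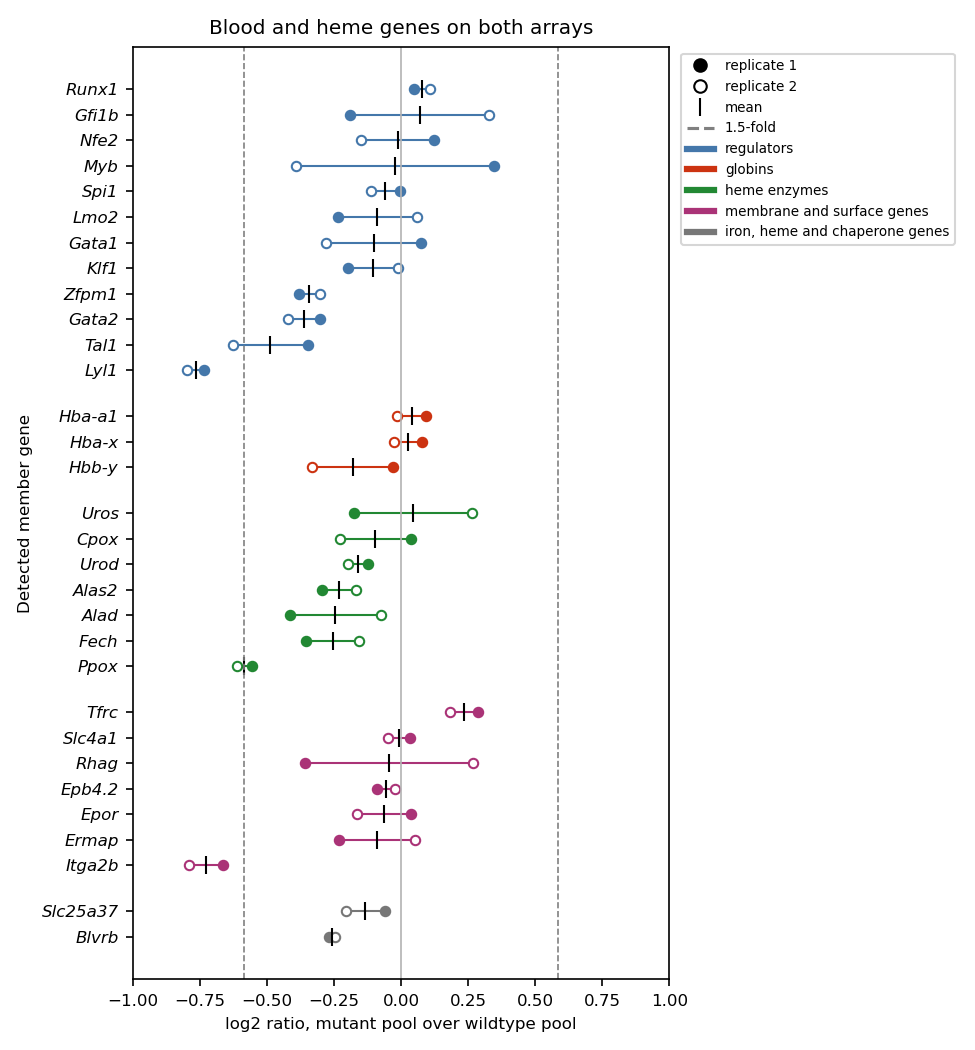
Log2 ratio of mutant over wildtype pool for the 31 detected members, by role; filled and open circles are the 2 dye-swapped arrays, the black tick is their mean, and dashed lines mark 1.5-fold. Lyl1 and Itga2b lie below the lower dashed line on both arrays, Ppox straddles it, and no member reaches the upper line.

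Among the 12 regulators, 1 fell, none rose, 6 were below 0 on both arrays (50%, against 24% of all genes), and the median log2 ratio was -0.10. Lyl1, a basic helix-loop-helix factor related to Tal1, had normalized log2 levels of 8.52 and 8.39 in the mutant pool and 9.26 and 9.18 in the wildtype pool. Within each array the mutant was thus lower, by log2 ratios of -0.73 and -0.80, a mean of -0.77 ± 0.04 or 1.70-fold lower. This rests on a single probe, at chr8:83977498-83977557 in the array annotation, which names no genome build. With median centring Lyl1 was at -0.33 and -1.31 on the 2 arrays, so its mean was lower still (-0.82) but it no longer passed the rule on replicate 1.

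Tal1, the central factor of the blood-forming complex, had log2 levels of 8.09 and 7.16 in the mutant pool and 8.44 and 7.79 in the wildtype pool. The mutant was lower on each array, by -0.35 and -0.63 (mean -0.49 ± 0.20), and passed 1.5-fold on replicate 2 alone. Levels of both pools were lower on replicate 2, so the genotypes are compared within each array. Gata2, the GATA factor of early blood progenitors, was at 7.65 and 7.57 in the mutant and 7.95 and 7.99 in the wildtype pool. Its ratios were -0.30 and -0.42 (mean -0.36 ± 0.08), with neither array past the rule. Zfpm1, which encodes the Gata1 cofactor FOG1, was at 10.55 and 10.66 in the mutant and 10.93 and 10.96 in the wildtype pool, a log2 ratio of -0.34 ± 0.05. These 3 genes and Lyl1 were the regulators with a mean over 0.3 in size, and all 4 lay below 0 on both arrays. Because they were picked by their mean over the same arrays, the shared sign is not separate evidence. With median centring, Zfpm1 was at 0.11 and Tal1 at 0.00 on replicate 1. Of the 12 regulators, 2 (16.7%, against 8.36% of all genes), Lyl1 and Gata2, stayed below 0 on both arrays.

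The erythroid factors Gata1, Klf1, Nfe2 and Gfi1b did not pass the rule. Gata1, on the X chromosome, had opposite signs on the arrays, 0.07 and -0.28 (mean -0.10 ± 0.25). Klf1, the activator of erythroid genes whose upstream sequence is shown above, was at -0.20 and -0.01 (mean -0.11 ± 0.13), and its second probe at -0.34 and -0.26 (mean -0.30). Nfe2, a factor of late erythroid and platelet genes, was at -0.01 ± 0.19, and Gfi1b, a repressor of the same lineages, at 0.07 ± 0.37. For both of these genes the arrays disagreed in sign.

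Regulators of other or shared blood lineages did not pass the rule either. Lmo2, the bridging protein of the Tal1 complex, was at -0.24 and 0.06 (mean -0.09 ± 0.21). Spi1, the myeloid factor PU.1, was at -0.01 and -0.11 (mean -0.06 ± 0.08). Runx1, required for the emergence of definitive blood from endothelium, was at 0.05 and 0.11 (mean 0.08 ± 0.04) with its brighter probe, and its dimmer probe gave -0.49 and 0.38. The mean log2 intensities of these Runx1 probes were far apart, 13.54 and 6.35. For the wildtype pool on replicate 2, the dimmer probe was not well above background. Whether both probes read the same transcript was not tested. Myb, a factor of definitive progenitors, was at 0.35 and -0.39, and its wildtype signal on replicate 1 was not well above background. For Myb and for the dimmer Runx1 probe, the arrays gave opposite signs.

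The 3 measured globins did not pass the rule, and their median log2 ratio was 0.03. Hba-x, the embryonic alpha-type globin zeta, had normalized log2 levels of 14.12 and 14.20 in the mutant pool and 14.04 and 14.22 in the wildtype pool. Its ratio was 0.08 on replicate 1 and -0.03 on replicate 2 (mean 0.03 ± 0.07). Hba-a1, an alpha globin made in embryo and adult, was at 0.09 and -0.01 (mean 0.04 ± 0.08). Its second probe gave -0.13 and -0.23 (mean -0.18 ± 0.07), and the probes cannot be assumed to separate Hba-a1 from its near-identical copy Hba-a2. The means of Hba-x and Hba-a1 turned below 0 with median centring, to -0.09 and -0.08, and that of Hba-a1 also when its probes were summarised by their median (-0.07).

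Hbb-y, the embryonic beta-type globin, was at -0.03 and -0.33 (mean -0.18 ± 0.21). Its brighter probe was saturated for the wildtype pool on replicate 2, which limits the size of that ratio. The second probe, not saturated, gave -0.30 and -0.01 (mean -0.16 ± 0.20). The array annotation ties these probes to several beta-globin transcripts, so the beta globins cannot be told apart with them. On both probes the mutant was lower on each array, and on both the SD between arrays exceeded the mean.

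In the scanner signals before any correction, the globins followed the dye on each array. Hba-x read 25122 in the mutant pool (Cy5) and 12976 in the wildtype pool (Cy3) on replicate 1, and 12334 in the mutant (Cy3) and 27896 in the wildtype (Cy5) on replicate 2. Hbb-y read 54668 and 29737 on replicate 1 and 22507 and 65268 on replicate 2, in the same order. In each case the Cy5 channel was the brighter, whichever genotype it held. The uncorrected log2 ratios of Hba-x were thus 0.95 and -1.18, and those of Hba-a1 were 0.98 and -1.17. Averaging the dye-swapped arrays without correction left -0.11 for Hba-x, -0.09 for Hba-a1 and -0.33 for Hbb-y. Following the dye was not particular to the globins. The uncorrected log2 ratios were 0.78 and -1.18 for Gata1 and 1.10 and -0.86 for Tfrc, whereas Lyl1 had -0.07 and -1.45.

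**Figure D2:**
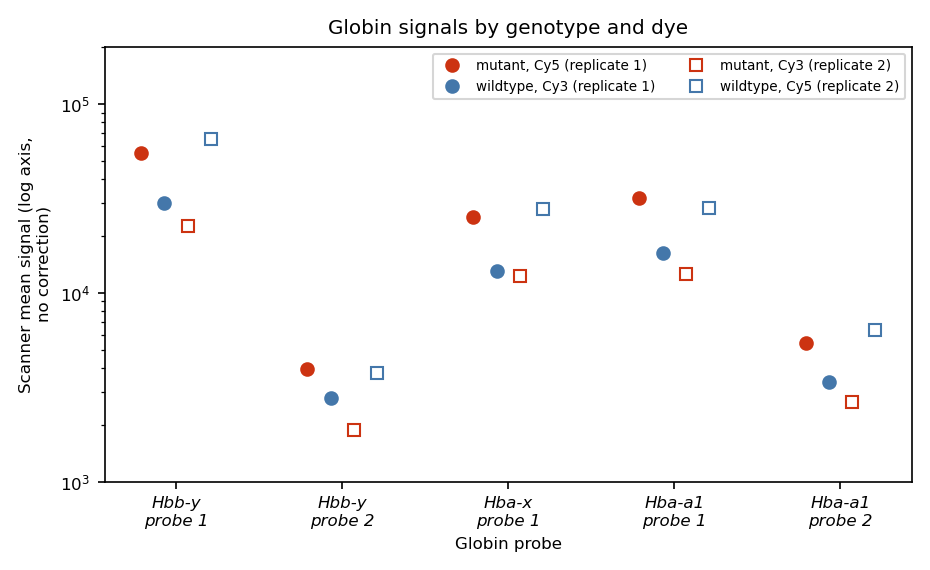
Uncorrected scanner signal (log axis) of the 5 globin member probes for the mutant pool (red) and the wildtype pool (blue) on replicate 1 (filled circles) and replicate 2 (open squares). For every probe the Cy5 signal is higher than the Cy3 signal on the same array, for the mutant on replicate 1 and for the wildtype on replicate 2.

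None of the 7 enzymes of heme synthesis passed the rule. Their median was -0.23 on the log2 scale, from -0.29 for replicate 1 alone to -0.17 for replicate 2 alone, and 5 of 7 were below 0 on both arrays, against 24% of all genes. With median centring 1 of 7 was (14.3%, against 8.36% of all genes). Alas2, the erythroid enzyme of the first and rate-limiting step, is X-linked and had log2 levels of 8.01 and 8.11 in the mutant pool and 8.30 and 8.28 in the wildtype pool. Its ratios were -0.29 and -0.17 (mean -0.23 ± 0.09). Alad, which joins the products of that step into porphobilinogen, was at -0.41 and -0.08 (mean -0.25 ± 0.24), so the SD was about the size of the mean.

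The later cytosolic steps were nearer to 0. Uros, which closes the porphyrin ring, had opposite signs on the arrays, -0.18 and 0.27. Urod, which acts on the ring next, was at -0.12 and -0.20 (mean -0.16 ± 0.05). Cpox, the first of the closing mitochondrial enzymes, was at 0.04 and -0.23 (mean -0.10 ± 0.19). Of these 3 enzymes, Urod had the same sign on both arrays.

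Ppox and Fech catalyse the last steps, oxidation to protoporphyrin and insertion of iron. Ppox had log2 levels of 7.08 and 6.92 in the mutant pool and 7.64 and 7.53 in the wildtype pool. Its ratios of -0.56 and -0.61 (mean -0.58 ± 0.04) put it just outside the rule, because replicate 1 fell short of 0.58, while Itga2b, the next member inside, had -0.67 as its smaller ratio. The second Ppox probe gave -0.20 and -0.18 (mean -0.19 ± 0.02). The difference of 0.39 between the Ppox probes was the largest for the 11 members with 2 detected probes, whose median difference was 0.13. Fech was at -0.36 and -0.16 (mean -0.26 ± 0.14), and its second probe had a mean of -0.07.

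Of the 7 membrane and surface genes, Itga2b fell and none rose, where 0.225% of all genes were called lower. The median was -0.06. Below 0 on both arrays were 2 of 7 (28.6%), and 1 (14.3%) was above, against 24% and 23% of all genes. Itga2b encodes the integrin CD41, a surface marker of the first blood progenitors and of megakaryocytes. Its log2 levels were 8.36 and 8.32 in the mutant pool and 9.03 and 9.11 in the wildtype pool. The ratios of -0.67 and -0.79 gave a mean of -0.73 ± 0.09, or 1.66-fold lower, for a probe at chr11:102140940-102140999 in the same unnamed build. A second probe, which overlaps the first, gave -0.66 and -0.48 (mean -0.57 ± 0.13) and so passed on replicate 1 alone. With median centring Itga2b was at -0.28 on replicate 1 and no longer passed there, with a mean of -0.79.

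Membrane genes of mature red cells were near 0 or scattered between arrays. Slc4a1, the band 3 anion exchanger, was at 0.03 and -0.05 (mean -0.01 ± 0.06), and Epb4.2, which anchors band 3 to the cytoskeleton, was at -0.09 and -0.03. Epor, the erythropoietin receptor, was at 0.04 and -0.17 (mean -0.06 ± 0.14). Ermap, a blood-group protein, was at -0.23 and 0.05, and Rhag, a channel of the Rh complex, was at -0.36 and 0.27. Ermap and Rhag each had 1 mutant signal not well above background, so their ratios carry little weight. Epb4.2 was as dim as Ermap, with a mean log2 intensity of 6.31 for each. The processing used here makes ratios of dim probes smaller, so the near-0 value of Epb4.2 carries little weight too.

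Tfrc, the transferrin receptor that brings iron into red cell precursors and into other dividing cells, had the highest mean of all members. Its log2 levels were 12.31 and 12.33 in the mutant pool and 12.02 and 12.15 in the wildtype pool. The ratios of 0.29 and 0.18 (mean 0.23 ± 0.07) were below the rule. The 2 remaining measured genes, Slc25a37 and Blvrb, both lay below 0 on both arrays, against 24% of all genes. With median centring neither did: on replicate 1 Slc25a37 was at 0.06 and Blvrb at 0.05. Slc25a37, mitoferrin, which carries iron into the mitochondrion for heme, was at -0.06 and -0.21 (mean -0.13 ± 0.10). Blvrb, a reductase of heme breakdown, was at -0.27 and -0.25 (mean -0.26 ± 0.02) with its brighter probe and at -0.15 on both arrays with the other.

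**Figure D3:**
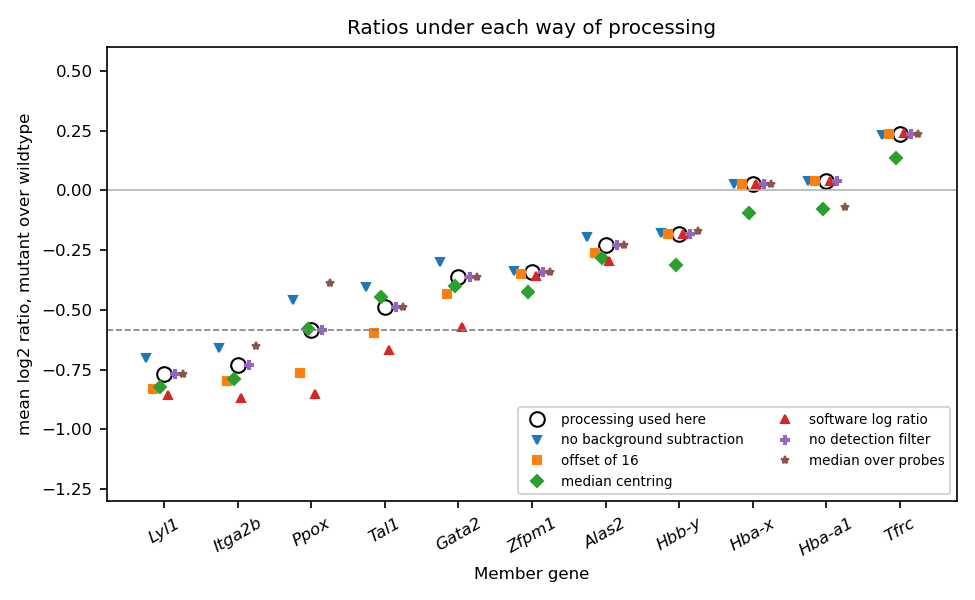
Mean log2 ratio of mutant over wildtype for 11 members under the processing used here (open circles) and 6 alternatives; the solid line is 0 and the dashed line is 1.5-fold lower. Lyl1 and Itga2b stay below the dashed line under every one, the values of Ppox range from -0.85 to -0.39, and Hba-x and Hba-a1 cross 0 with median centring, as Hba-a1 also does with the median over probes.

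Other genes of the same pathways gave no call under the processing used here. Of all detected genes, 0.225% were called lower and 0.206% higher, so few or no calls would fall in lists this short. The counts below stand beside 24% of all genes below 0 on both arrays and 23% above. Of 22 further regulators and partners, 20 were detected, 8 were below 0 on both arrays, 4 were above, and the median was -0.04. The largest ratios were those of Ets1, an ETS factor of blood and vessels, at -0.51 and -0.60 (mean -0.56 ± 0.07), and of Etv2, the ETS factor that starts the shared blood and endothelial programme, at -0.62 and -0.43 (mean -0.52 ± 0.13). Each passed 1.5-fold on 1 array and not on the other. With the scanner software's own log ratio, Ets1 was called lower. Of 15 further genes of heme synthesis and transport, 14 were detected, the median was -0.07, and 6 lay below 0 on each array. Abcb10, a mitochondrial transporter of red cells, was at -0.28 ± 0.13, and Blvra, a biliverdin reductase, was at -0.22 ± 0.09.

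The 12 further iron genes had a median of 0.02, with 3 below and 5 above 0 on both arrays (25% and 41.7%, against 24% and 23% of all genes). They were led by the iron exporter gene Slc40a1 at -0.35 ± 0.06 and by Ncoa4, which targets ferritin for breakdown, at -0.27 ± 0.25. Of 23 further erythroid genes, 20 were detected, with 3 below and 4 above and a median of -0.01. Tmod1, an actin-capping protein of the red cell skeleton, was at -0.30 ± 0.44, and Bnip3l, which clears mitochondria from maturing red cells, was at 0.25 on both arrays. Of 16 receptors and ligands of blood progenitors, 15 were detected, with 5 below and 2 above and a median of -0.05. Kdr, the VEGF receptor of blood and endothelial progenitors, was at -0.37 and -0.84 (mean -0.60 ± 0.33), and Socs2, a feedback inhibitor of cytokine receptors, was at -0.46 ± 0.03.

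Markers of cells that share genes with the set moved unevenly. All 13 endothelial markers, a list chosen with earlier results of these data known, were below 0 on both arrays, against 24% of all genes. Their median was -0.42, and they ranged from -1.06 for Cldn5 to -0.10 for Eng. Among them 2 were called lower, against 0.225% of all genes. Cldn5, a tight-junction protein of endothelium, fell 2.09-fold (-1.06 ± 0.21), and Sox18, an endothelial transcription factor, fell 1.62-fold (-0.70 ± 0.08). The endothelial list thus lay further below 0 than the members, whose median was -0.10. Lyl1, Tal1, Gata2 and Itga2b are also expressed in endothelium or in progenitors that arise from it, and the part of endothelial RNA in their values was not tested. With the software log ratio, 12 of the 13 endothelial markers were below 0 on both arrays. With median centring, 8 of the 13 were (61.5%, against 8.36% of all genes), and the median was -0.40. Cldn5 alone was then called lower, as it was without background subtraction.

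The 8 detected of 9 primitive erythroid markers, 7 of which are also members, had no gene past the rule and a median of -0.08. Of the 8, 4 were below 0 on both arrays (50%, against 24% of all genes). This excess depended on the processing. With median centring none of the 8 was below 0 on both arrays, against 8.36% of all genes. Without background subtraction 3 were below and 2 above. Of 5 megakaryocyte markers Itga2b alone passed, 2 were below 0 on both arrays (40%, against 24% of all genes) and none was above. Pf4, a platelet chemokine, was at -0.39 and -0.37 (mean -0.38 ± 0.01), while Gp9, a platelet glycoprotein, was at -0.03. The 8 detected myeloid markers ranged from -0.06 to 0.08, with a median of 0.04. The 6 detected markers of yolk sac and visceral endoderm had a median of 0.02, and none passed. Among 8 markers of tailbud and presomitic mesoderm, the tissue the labels name, all were detected and the median was -0.09. Of these, 4 (50%) were below 0 on both arrays and 1 (12.5%) was above, against 24% and 23% of all genes. Cyp26a1, a retinoic acid-degrading enzyme, fell (-1.04 ± 0.08).

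**Figure D4:**
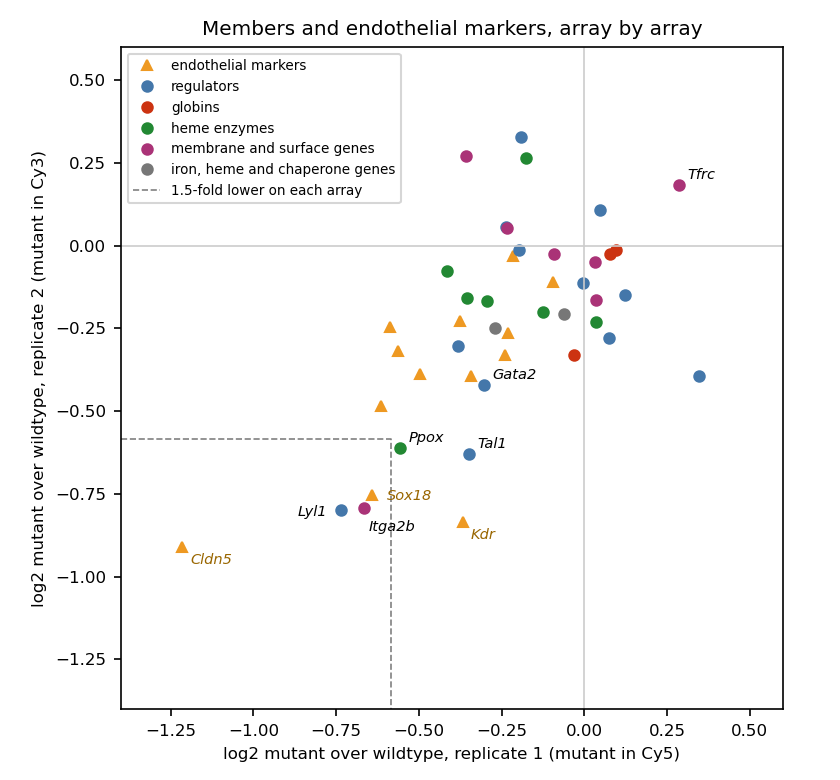
Log2 ratio on replicate 1 (x axis) against replicate 2 (y axis) for the 31 detected members (circles, by role) and the 13 endothelial markers (triangles); dashed lines bound the region 1.5-fold lower on each array. Lyl1 and Itga2b lie in that region with the endothelial genes Cldn5 and Sox18, and all triangles lie below 0 on both axes.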

How the data were processed

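Total RNA of posterior embryo tissue, 1 pool of 7 embryos per genotype, was hybridised on 2 dual-colour Agilent whole mouse genome arrays with a dye swap. The deposited files hold, per the file headers, spot intensities (mean and local background of Cy3 and Cy5), the scanner software's log10 ratio of Cy5 over Cy3 and its p-value. The scanning software was Feature Extraction, in version 9.5.3 per the submitters' processing notes and 7.5.1 per the file headers. The software's log10 ratio and p-value, as deposited by the authors, were used for alternatives only.

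With limma 3.58.1 in R 4.3.3, intensities were background-corrected by normexp (offset 50, fitted on all 43430 spots) and normalized by loess within each array, with control spots at weight 0. Non-uniform spots (205 and 90 gene spots) were left out, ratios were turned to log2 mutant over wildtype, and spots were averaged per probe. Channel levels were scaled between arrays (Aquantile) and serve only to compare genotypes at one probe. The offset makes ratios of dim probes smaller. A gene was detected when, on each array, a probe was well above background for either genotype, and its brightest detected probe stands for it. Of 41013 probes, 19435 were named by accession through the RefSeq table (GRCm38.p6), 3620 by symbol, 2908 by an older symbol, 544 by accessions of several genes and 14506 kept the file's name. Every member is named, and from each further list the genes past the rule or else the 2 with the largest mean ratio, and other genes named from those lists (Eng, Pf4 and Gp9) were chosen after their values were seen. The script was tested on simulated arrays. Replicates were taken as technical. The members, lists and rules were chosen with earlier results of these data known. Alternatives were other background corrections, offset, normalization, the software ratio, filters, probe summaries, thresholds and each array alone. The number of arrays limits the precision.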

Additional observations from a re-analysis of the deposited data

How the results depend on the processing

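No member was called higher under any of the 12 alternatives. The count called lower, 2 here, was 0 with median centring and 0 at 2-fold, and leaving out an array gave 2 to 4 (Ppox and Tal1 were added without replicate 1). It was 3, with Ppox, at an offset of 16, with the software log ratio and at 1.3-fold. The median over all members went from -0.10 to -0.12 at an offset of 16, -0.13 with median centring and -0.18 with the software ratio, and to -0.16 without replicate 1 and -0.15 without replicate 2, where detection and the brightest probe were taken from the remaining array (Blvrb then took its other probe). The regulators' median went from -0.10 to -0.13 with median centring, -0.12 with the software ratio, and -0.21 and -0.19 on single arrays. The globins' median, 0.03, turned to -0.094 with median centring and -0.071 with the median over probes. That of the iron, heme and chaperone genes was -0.32 with the software ratio, and from -0.10 to -0.23 on single arrays. The cause of these shifts was not tested. The sign of the mean was kept under all 6 alternatives with both arrays for 23 of 31 members. Over all genes, counts called higher and lower were 55 and 60 here, 43 and 38 without background subtraction, 80 and 91 at an offset of 16, 27 and 16 with median centring, 167 and 190 with the software ratio, 140 and 195 at 1.3-fold, 20 and 7 at 2-fold, 84 and 107 by the software error model, 320 and 127 without replicate 1, and 93 and 466 without replicate 2. The mean of both arrays gave 78 and 95.

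Every ratio was formed within an array, which held both pools. No paired analysis of biological replicates was possible because the labels give a single pool per genotype. They also give no replicate numbers shared between samples. The arrays were taken, as an assumption, to hold the same extracts. Differences near the SD between arrays could not be resolved, and the spread between embryos was not measured.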

Other observations

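Other probes of the globin loci, outside the named members, gave values as small as the globins described. A probe for a transcript annotated as similar to an alpha globin (LOC383229) was at -0.06 and -0.11 (mean -0.09 ± 0.04). A probe for a complementary DNA annotated as adult beta globin (U018225) was at 0.14 and -0.11 (mean 0.01 ± 0.18). Hbq1, a theta-type globin, was at 0.01 and 0.04 on its detected probe. None of these passed 1.5-fold on either array.

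Between the pools, 3 genes of the Y chromosome were higher in the mutant on both arrays: Ddx3y by 0.58 ± 0.16, Uty by 0.50 ± 0.27 and Eif2s3y by 0.39 ± 0.37 on the log2 scale. None passed 1.5-fold on both arrays.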
